A study of Mus musculus with 4 samples.

Results

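The genes described here are 6 members of the interferon-inducible p200 family of the mouse, Aim2, Ifi204, Ifi203, Mnda, Mndal and Pyhin1. They were chosen by name, and all 6 of them are among the 24421 genes of the count tables. The RNA came from lung endothelial cells (ECs) of 2 male mice of the strain C57/BL6 at an age of 2 weeks, from independent litters, which carried an inducible ADAR1 knockout (i-KO) that the labels describe as EC-specific. Cultures at passage 3 were either treated with 4-OH-TM, an active tamoxifen, for 48 h (TM) or left untreated (CON), so that each mouse, EC1 and EC2, gave 1 CON and 1 TM library and n = 2 libraries per group. CON cells carry the same inducible allele, treatment and deletion of ADAR1 cannot be told apart, and the promoter that drives the recombinase in these i-KO mice is not given in the sources used here. The comparison asks how loss of ADAR1 in ECs changes RNA levels and A-to-G editing in these genes.

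Proteins of the p200 family, also called PYHIN or HIN-200 proteins, carry a pyrin domain that binds other pyrin domains, a HIN domain that binds DNA, or both. Interferon induces many of the genes. AIM2 binds DNA in the cytosol and assembles an inflammasome through the adaptor ASC, and other members act in the nucleus on transcription, cell growth and differentiation. ADAR1 converts adenosine to inosine in double-stranded RNA, which sequencing reads as an A-to-G change. It prevents cellular double-stranded RNA from triggering the RNA sensor MDA5 and an interferon response.

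The 6 genes lie in 1 cluster on chromosome 1, where GENCODE vM21 on mm10 lists other p200 genes between them. Aim2 spans chr1:173350879-173466040 and Pyhin1, named Ifi209 there, spans chr1:173630917-173647928, both on the plus strand. On the minus strand lie Ifi204 (chr1:173747293-173766943), Mndal (chr1:173849126-173942491), Mnda, named Ifi211 there (chr1:173896345-173913046), and Ifi203 (chr1:173920407-173942672). Mndal overlaps both Mnda and Ifi203, and 37 exonic bases are shared by Mndal and Ifi203. The genes are paralogs, so reads of one member can match another. Of the distinct stretches of 1 read length in the transcripts of Mnda, 56.7% also occur in a transcript of another gene, most often Ifi205. The share was 16.6% for Pyhin1, always with Ifi214, 10.6% for Ifi204, most often with Mnda, 6.25% for Mndal and 2.79% for Ifi203. No such stretch of Aim2 was found in another gene. Levels of Mnda above all, and to a lesser degree of Pyhin1 and Ifi204, are therefore uncertain.

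The sequences just before the start sites are shown because interferon induces many p200 genes. Promoter windows of 250 bases before to 50 bases after a start, from RefSeq on GRCm38.p6, were found for 5 of the 6 members, and Ifi204 had no entry. They were searched on both strands for the core of the interferon-stimulated response element (ISRE), GAAA, any 2 bases and GAAA again, which is bound by interferon-activated factors, for the interferon regulatory factor core AANNGAAA, which any ISRE core contains, and for the STAT site TTCNNNGAA. An ISRE core was found in 3.44% of the 32851 promoter windows of the same length in the mouse table. Among the members it was found in 3, namely Ifi203, Mnda and Mndal, and it was also found in 6 of 7 other p200 genes that had an entry. Ifi203 and Mndal each have 2 entries, and 1 of those of Ifi203 held no match. The regulatory factor core, found in 23.9% of all windows, was the only match in Pyhin1. No window of a member held the STAT site, found in 8.3% of all windows, and the window of Aim2 held none of these letters. The following stretches of 60 bases run 5′ to 3′ along the gene, with the ISRE core in capitals. They lie at chr1:173942493-173942552 (Ifi203), chr1:173880189-173880248 (Mndal) and chr1:173913049-173913108 (Mnda), all on the minus strand.
Ifi203: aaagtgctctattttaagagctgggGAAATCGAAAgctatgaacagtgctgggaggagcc
Mndal: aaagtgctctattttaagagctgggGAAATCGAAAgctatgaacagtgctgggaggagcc
Mnda: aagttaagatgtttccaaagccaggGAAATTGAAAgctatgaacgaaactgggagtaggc
The stretches of Ifi203 and Mndal were identical at all 60 bases, and that of Mnda matched each of them at 41 of 60. A match is a description of letters and not a measured binding site.

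Adar, the gene of ADAR1, was read first in each library. Its count was 9 without and 47 with TM in EC1, and 16 without and 71 with TM in EC2, so the count over the whole gene was higher in TM. This count includes exons outside the deleted part and does not check the deletion. In exons 12 to 14 of the 15-exon GENCODE transcript, EC1 CON had a median depth of 145 reads at 3 listed variant sites and EC1 TM had no listed site, while EC2 CON had 169 reads at 1 site and EC2 TM 65.5 at 2 sites. In exons 1 to 11 the median depth went from 152.5 to 664 reads in EC1 and from 176 to 1001.5 in EC2. In exon 15, the last, it was 99 reads at 9 sites without and 422 at 17 sites with TM in EC1. For EC2 it was 156 at 2 sites without and 835 at 15 sites with TM, so exon 15 was deeper in TM in both mice. The study counts exon 15 among the deleted exons. Whether its exon numbers match those of the transcript used here was not tested. Counts on genes were 1095488 to 1778732 per library, which was 0.823% to 0.858% of the total of each count table. Endothelial markers were counted, with 11 of 14 tested and summed levels of 1520 to 1720 CPM (TMM-scaled CPM, the counts divided by the library's effective size). Of the 11 tested, Cldn5 was called lower in TM by edgeR and not by DESeq2, and 10 were not called. Icam2, on whose protein the cells were selected, had only 8 to 13 counts, and Vwf 0 to 2. Leukocyte markers, for cells that express p200 genes widely, summed to 98.5 and 110 CPM in CON and to 93.3 and 122 CPM in TM, with Lyz2, Cd52 and Cd3e at 0 in every library. The 4 leukocyte markers tested were Csf1r (50 to 63 counts), Cd79a (23 to 35), Cd68 (10 to 39) and Coro1a (12 to 38). Of these 4, 0 were called by edgeR or DESeq2 and 0 had an unadjusted p under 0.05. Fibroblast and smooth muscle markers summed to 570 and 581 CPM in CON and to 493 and 583 CPM in TM, and epithelial markers to 13.7 and 21.4 against 16.5 and 19.9 CPM. In bulk RNA, more cells of a type and more RNA per cell cannot be told apart. With so small a share of reads on genes and their strand not tested, these counts do not establish which cells were present.

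All 6 members had higher counts in TM than in CON, in both mice. Summed over the 6 genes, the level was 11.6 CPM in CON against 134 in TM for EC1, and 8.21 against 187 for EC2. For each member both TM libraries lay above both CON libraries, which was so for 25.3% of the 7899 genes tested. With the quasi-likelihood test of edgeR, Benjamini-Hochberg adjusted across all genes, 6 of 6 members were called higher in TM at an adjusted p at or under 0.05, against 4.39% of the genes tested. DESeq2 called 5 of the 6 higher, against 2.26% of its genes, and gave Mnda an adjusted p of 0.0635. None of the 6 reached the low-count filter of 8.63 CPM in a CON library and all 6 reached it in both TM libraries. A gene that is kept in this way has to differ, so the number of members called is a description of the family and not support for its rise. Without a filter on low counts the same 6 were called.

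Aim2, the cytosolic DNA sensor of the inflammasome, had counts of 2 without and 45 with TM in EC1, and 2 without and 71 with TM in EC2. These were 1.80 ± 0.0317 CPM in CON and 40.5 ± 0.233 CPM in TM (SD, n = 2 each), and the groups did not overlap. The ratio of summed counts was 22.5, with a 95% interval of 8.55 to 83.9 that covers counting error only. The log2 fold change was 4.42 (standard error 0.60, edgeR adjusted p = 4.87e-06), the smallest adjusted p among the members.

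Ifi204, a nuclear and cytosolic member that takes part in DNA sensing and macrophage differentiation, had counts of 6 without and 37 with TM in EC1, and 6 without and 117 with TM in EC2. The level was 5.40 ± 0.0954 CPM in CON and 50 ± 23.4 CPM in TM (SD, n = 2). Both CON libraries were alike and both TM libraries were higher, EC2 TM most. The log2 fold change was 3.21 (standard error 0.51, edgeR adjusted p = 4.24e-05).

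Ifi203, a nuclear member, had counts of 5 without and 22 with TM in EC1, and 0 without and 58 with TM in EC2. The level was 2.22 ± 3.15 CPM in CON and 26.4 ± 9.25 CPM in TM (SD, n = 2). The CON libraries differed from each other, and both lay below the TM libraries. The log2 fold change was 3.52 (standard error 0.71, edgeR adjusted p = 0.00107), and without the EC2 TM library the adjusted p was 0.0696.

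Mnda, named for the human myeloid nuclear differentiation antigen, had counts of 0 without and 15 with TM in EC1, and 1 without and 36 with TM in EC2. With 1 count in CON the ratio of 39.5 has a 95% counting interval of 6.79 to 1590. The TM libraries, at 13.6 and 20.5 CPM, were far above the CON libraries. The fitted log2 fold change was 4.98 (standard error 0.96, edgeR adjusted p = 0.000641), but the call was lost without EC2 TM (adjusted p = 0.148). With mouse as a block edgeR kept the call, and DESeq2 gave no adjusted p and an unadjusted p of 0.00306.

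Mndal, an Mnda-like nuclear protein, had 0 counts in both CON libraries, 11 in EC1 TM and 25 in EC2 TM. Its mean of 12.1 ± 3.02 CPM in TM (SD, n = 2) was at least 4.47-fold higher than the limit that a count of 0 allows, 3 counts per library. Pyhin1, a nuclear HIN protein, also had 0 counts in both CON libraries, with 18 in EC1 TM and 22 in EC2 TM. Its mean of 14.4 ± 2.67 CPM in TM was at least 5.33-fold higher than that limit. Both genes were called (edgeR adjusted p = 0.000943 for Mndal and 0.000484 for Pyhin1). Without EC1 TM the adjusted p of Pyhin1 was 0.0576, and without EC2 TM Mndal did not pass the low-count filter. With mouse as a block edgeR kept both calls, and DESeq2 gave neither gene an adjusted p. Its unadjusted p was 0.124 for Mndal, with a standard error of 4.01 on the log2 scale, and 0.0011 for Pyhin1.

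**Figure D1:**
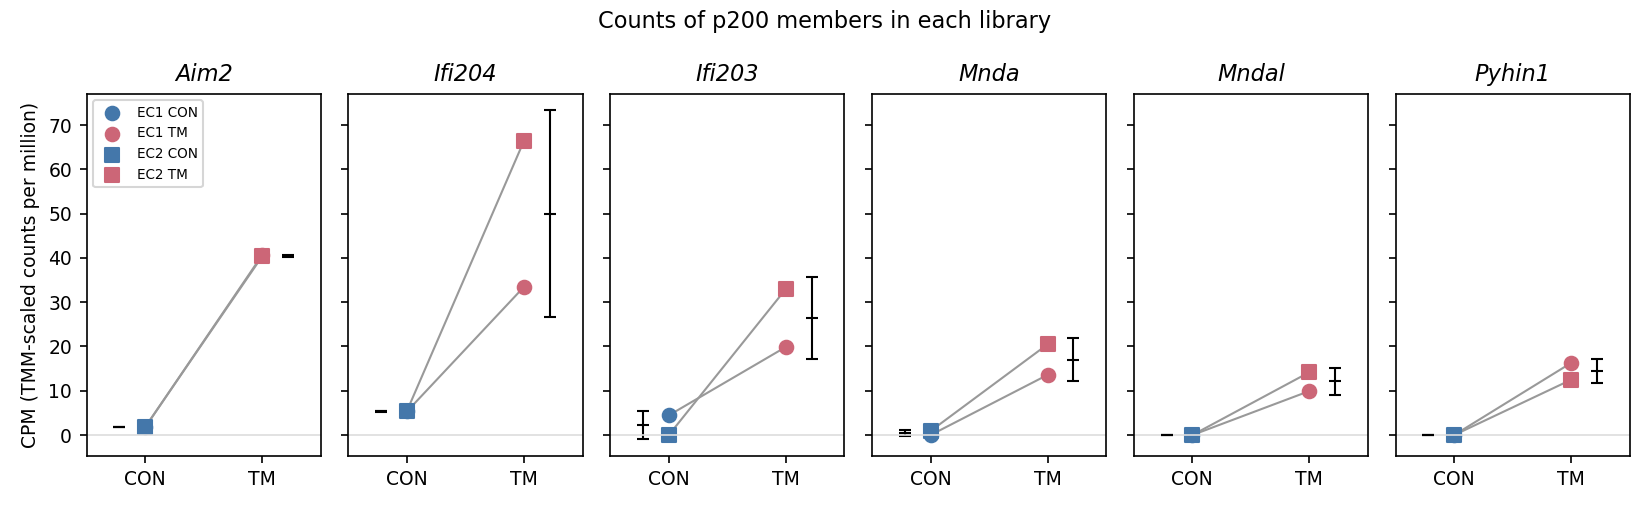
CPM of each member (vertical axis) in CON and TM, with circles for EC1, squares for EC2, lines joining the libraries of a mouse, and bars for the mean ± SD (n = 2). All TM libraries lie at 9.95 CPM or more and all CON libraries at 5.47 CPM or less.

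The order of the mean levels in TM was Ifi204, Aim2, Ifi203, Mnda, Pyhin1 and Mndal, on CPM that are not divided by gene length. Because these values are not per length, the order is not one of transcript numbers. Neighbours in it differed by less than the SD of 1 of them for Ifi204 and Aim2, for Mnda and Pyhin1, and for Pyhin1 and Mndal.

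Read depth at variant sites gave a second readout of the same libraries. In the authors' site table a library has reads only at sites where its own variant call found an altered base, so depth is known at listed sites alone. The median depth over exon and UTR sites that the CON and the TM library of a mouse both list was scaled by the total of each count table. At this readout 5 of the 6 members were at least 2-fold deeper in TM in both mice, against 4.46% of the 4211 genes that could be measured. The median log2 ratio over all genes was 0.014 in EC1 and -0.073 in EC2.

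Ifi203 had a median of 13.5 reads without and 439.5 with TM in EC1 at 20 shared sites, and 19 without and 910 with TM in EC2 at 23 sites. The scaled depth was 32.9-fold higher in EC1 and 33.2-fold higher in EC2. Both mice gave nearly the same fold.
Ifi204 went from 97.5 to 1211 reads in EC1 (12.5-fold, 8 sites) and from 109 to 1948 in EC2 (12.4-fold, 9 sites). Mnda went from 87.5 to 1407.5 reads in EC1 (16.2-fold, 8 sites) and from 106 to 2635 in EC2 (17.2-fold, 3 sites). These 2 genes, which share stretches of sequence, were the deepest members in CON.
Mndal went from 16.5 to 396.5 reads in EC1 (24.3-fold) and from 15.5 to 764.5 in EC2 (34.1-fold), at 8 sites in each. Pyhin1 went from 3 to 348.5 reads in EC1 (117-fold) and from 7 to 1000 in EC2 (98.9-fold), but with only 2 sites and 1 site listed in CON. Its fold thus rests on very few CON reads. The listing of sites can favour deeper positions, and no test was made on depth.

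**Figure D2:**
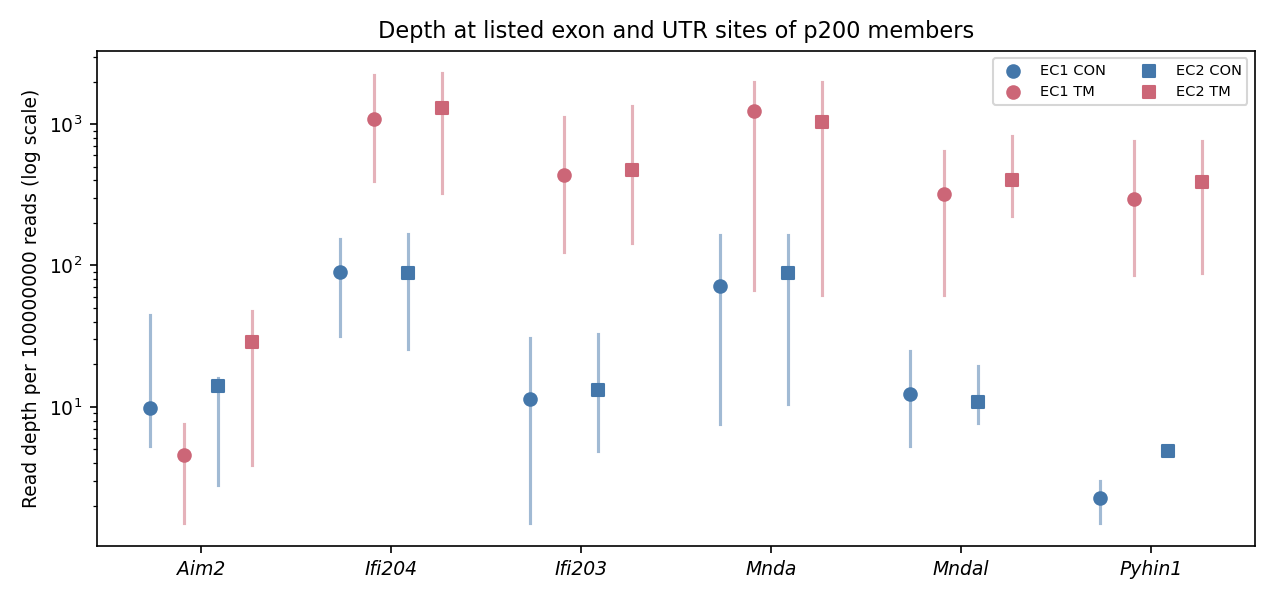
Read depth per 100000000 reads of the count-table total (log scale) at all listed exon and UTR sites of each member, with the median as a point and the lowest to highest site as a bar. TM lies above CON in both mice for Ifi204, Ifi203, Mnda, Mndal and Pyhin1, while Aim2 is below 30 in all 4 libraries by its medians.

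Aim2 differed between the readouts. At its 2 exonic sites listed in both libraries, the median depth was 10 reads without and 6 with TM in EC1, and 12 without and 22 with TM in EC2. The scaled depth was 0.606 times the CON value in EC1 and 1.27 times in EC2, whereas the CPM was over 22 times higher in both mice. Intron sites of Aim2 gave 3.03-fold in EC1 and 2.31-fold in EC2, from CON medians of 1.5 reads. The median depth over its listed exon and UTR sites implies about 104 read pairs in EC1 TM and 1040 in EC2 TM, and the count was 43.3% and 6.83% of these. The first value rests on 2 sites in the 3′ UTR, with 10 and 2 reads, of which the deeper lies in a LINE repeat, and the second on 6 sites. In every other member and library the count was at most 1.0% of the pairs implied in this way, and in Aim2 in CON it was 0.889% and 0.576%. The library kit marks the strand of the RNA, and HTSeq at its default setting counts reads on 1 strand of a gene. Ifi206 lies on the opposite strand just 3′ of Aim2, and of 166 variant sites beyond the 3′ end of Aim2 more were listed, at higher median depth, in TM in both mice. The strand of the counted reads was not tested for any gene. The counts and CPM of all 6 members, and of every other gene given here, are therefore not shown to come from the gene's own strand.

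Along the cluster, 235 sites in EC1 and 224 in EC2 had at least 20 reads summed over both libraries of the mouse. The scaled depth was over 2-fold higher in TM at 234 of these in EC1 and at 223 in EC2, with median log2 ratios of 4.04 and 4.23. The share of such sites over the whole site list was not computed. Many of the cluster sites lie a few bases apart and can hold the same reads, so their number is a description. The exception in both mice was the same place, a site in the 3′ UTR of Aim2 at position 173465546 of chromosome 1, where the log2 ratio was -0.36 in EC1 and 0.32 in EC2. The next lowest site had a log2 ratio of 1.34 in EC1 and 1.40 in EC2.

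**Figure D3:**
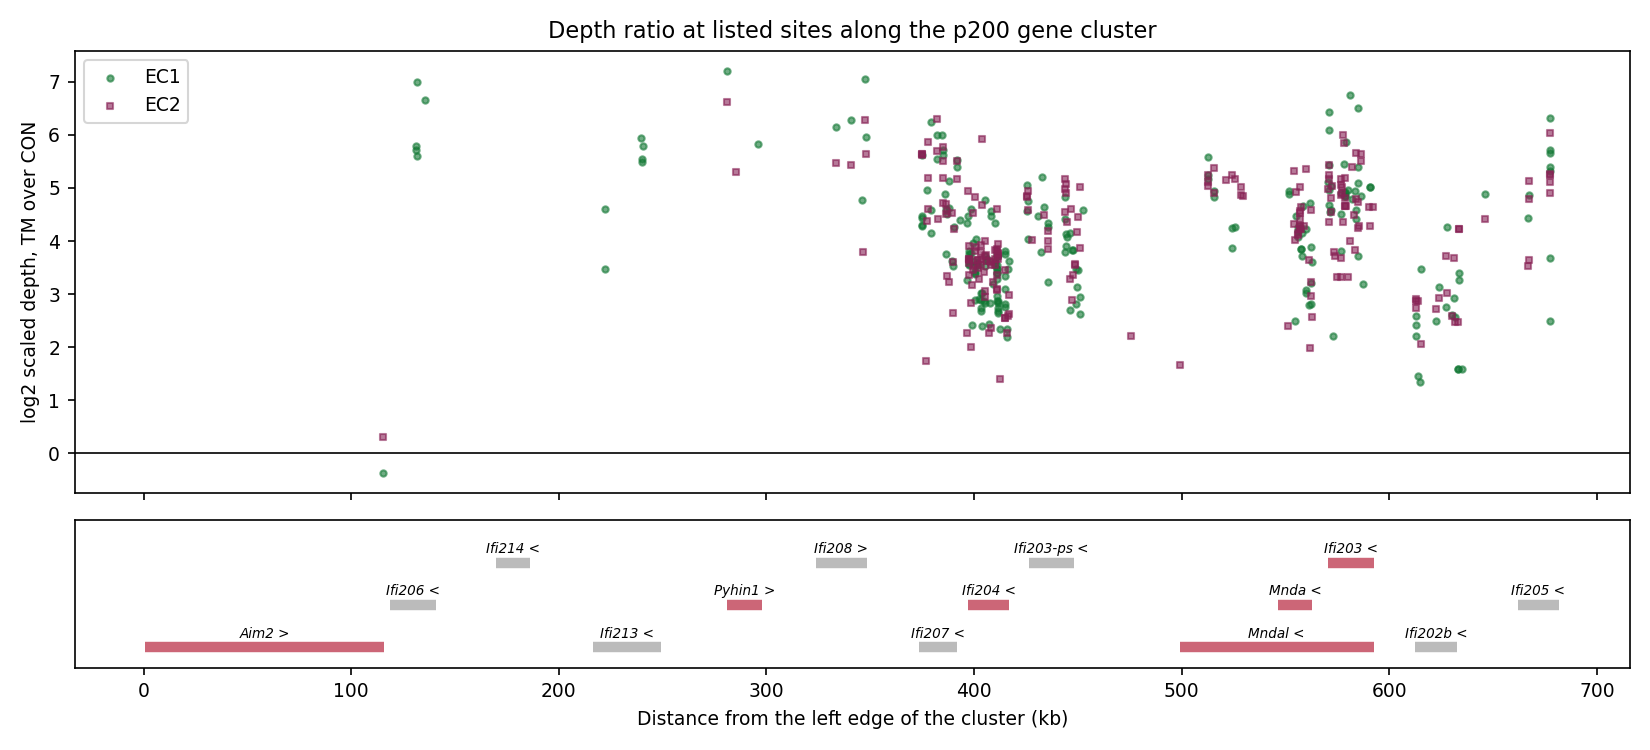
The upper panel plots the log2 scaled depth ratio of TM over CON at each listed site against its distance along the cluster in kb, with circles for EC1 and squares for EC2. The lower panel maps the genes with members in red and other p200 genes in grey, with > or < for the strand, and only the Aim2 site lies near a ratio of 0.

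Another 6 p200 genes have a row in the count tables. Of these, 2 were tested by edgeR and both were called higher in TM, but DESeq2 called 0 of the 3 to which it gave an adjusted p. Ifi202b, an inhibitory member without a pyrin domain, had 5 and 6 counts in CON against 16 and 39 in TM, a log2 fold change of 1.89 (standard error 0.60, edgeR adjusted p = 0.0499). Pydc3, named Ifi208 in GENCODE, had 1 and 0 in CON and 17 and 27 in TM (edgeR adjusted p = 0.00108). Ifi205, AI607873, Pydc4 and BC094916 were not tested for low counts. AI607873, named Ifi207 in GENCODE, had 0 in both CON libraries against 13 and 15 in TM. Pydc4 was counted 1 and 0 times in CON against 7 and 0 in TM.

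Partners of the members were read from lists of DNA sensing and inflammasome genes. Of 20 DNA sensing genes in the table, 9 were tested, 3 rose, 0 fell and 6 were not called, and DESeq2 called the same 3. Of all genes tested, 4.39% were called higher by edgeR and 2.26% by DESeq2. Zbp1, a sensor of Z-form nucleic acid, had 0 counts in CON against 19 and 48 in TM (edgeR adjusted p = 3.44e-05). Samhd1, which degrades nucleotides, had 2 and 5 in CON against 29 and 59 in TM (edgeR adjusted p = 0.000439). Trex1, a DNA exonuclease, had 111 and 67 in CON against 268 and 291 in TM (edgeR adjusted p = 0.0065). The DNA sensor cGAS, listed as Mb21d1, was counted 8 and 6 times in CON against 4 and 4 in TM, and its adaptor STING, listed as Tmem173, had 12 and 4 against 5 and 11. Neither was tested for low counts.

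Of 21 inflammasome genes in the table, 5 were tested, and 0 were called by edgeR at an adjusted p of 0.05 or had an unadjusted p under 0.05. DESeq2 called 0 of 7. Pycard, which encodes the adaptor ASC through which AIM2 acts, was counted 368 and 282 times in CON against 412 and 376 times in TM. The fitted change was 0.00 on the log2 scale (standard error 0.30, edgeR adjusted p = 1). Casp1, the inflammasome protease, was counted 0 and 2 times in CON against 0 in both TM libraries. Gsdmd, the pore-forming protein it cleaves, had 3 and 3 in CON and 4 and 12 in TM. The cytokine genes Il1b and Il18 had at most 8 and 2 counts in any library. These 4 genes were not tested for low counts, and at this depth changes smaller than those of the members could not be seen. The strand limit given for the members applies to the inflammasome and DNA sensing genes as well. Flat or low counts of these genes thus do not show flat or low mRNA.

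The genes whose profile over the 4 libraries was most like the mean profile of the members were Psmb8, Gm4951, Mthfd2, Cyb5r1 and Psmb9. Their Euclidean distances in centred log2 CPM were 0.2 to 0.232. Psmb8 and Psmb9 encode subunits of the immunoproteasome, and Mthfd2 a mitochondrial enzyme of folate metabolism. Psmb8 had 0 counts in both CON libraries and 13 and 24 in TM. These distances compare 4 points and are a description.

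Variant sites named for a member numbered 1605, of which 1024 lay in its exons, UTRs or introns. Sites were taken as passing where a library had 5 or more reads, 3 or more of them altered, and between 5% and 95% of reads altered. In the gene bodies 168 sites passed in at least 1 library. Of these, 51 were exonic and 117 intronic, and 15 lay in a short interspersed element (SINE), the repeats in which editing is most common in mouse RNA, against 123 outside any repeat. Among gene-body sites passing in CON or TM of EC1, 13 of 151 lay in a SINE, against 4639 of 12550 in all genes. For EC2 it was 7 of 143, against 4269 of 12707. Ifi204 had 63 passing sites, Ifi203 51, Mnda 23, Mndal and Pyhin1 11 each, and Aim2 9.

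At 151 member sites in EC1 and 143 in EC2 a rate passed in CON or TM. The rate was higher in CON by 0.05 or more at 35 sites in EC1 (23.2%, against 44.5% of sites in all genes) and at 28 in EC2 (19.6%, against 37.6%). It was higher in TM at 66 sites in EC1 (43.7%, against 28% in all genes) and at 63 in EC2 (44.1%, against 32.9%). Of the sites higher in TM, 47 in EC1 and 40 in EC2 were not listed in CON, where depth was low and the rate counts as 0. Of those higher in CON, 7 in EC1 and 6 in EC2 were not listed in TM, where the rate also counts as 0. At sites of members listed in both libraries with 5 reads in each, CON was higher at 28 of 67 in EC1 (41.8%, against 41.6% in all genes) and at 22 of 65 in EC2 (33.8%, against 42.1%). TM was higher at 12 in EC1 (17.9%, against 27.4%) and at 18 in EC2 (27.7%, against 26.8%). Listing needs an altered base in CON, so where CON is shallow these shares lean toward CON.
At exon and UTR sites, CON was higher at 24 of 49 in EC1 (49%, against 47.1%) and at 21 of 45 in EC2 (46.7%, against 46.7%). TM was higher at 6 in EC1 (12.2%, against 20.7%) and at 9 in EC2 (20%, against 20.4%). The shares for exon and UTR sites were thus near those of all genes, apart from TM higher in EC1. Of the sites higher in CON, 6 in EC1 and 6 in EC2 were not listed in TM, where the rate counts as 0. Among exon and UTR sites listed in both libraries with 5 reads in each, CON was higher at 18 of 35 in EC1 and 15 of 36 in EC2. TM was higher at 3 and 6 of them. In all genes CON was higher at 747 of 1696 and 1007 of 2215 such sites, and TM at 280 and 338.
Fisher's exact test on the reads of each site, 2-sided and adjusted over all sites, called 0 of 125 member sites in EC1 and 0 of 122 in EC2, against 0.0597% and 0.165% of all sites. It compares 2 libraries and not the conditions. At an unadjusted p under 0.05 there were 9 member sites in EC1 (7.2%, against 0.957% of all sites) and 15 in EC2 (12.3%, against 1.38%). These shares are not like for like, since all sites were not matched to the members by depth. In EC1, 67 of the 125 member sites passed with 5 reads in both libraries, against 7895 gene-body sites among the 83783 of all kinds. The direction of the 9 and 15 sites was not counted. The median CON depth at the 125 and 122 member sites was 10 and 8 reads. That depth limits what the test can detect in the members, so 0 calls do not show equal rates.

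Many exonic sites kept high rates in TM. At position 173751919 of chromosome 1 in Ifi204, the rate was 34.7% of 98 reads without and 38.9% of 1139 with TM in EC1, and 31.1% of 119 without and 35.9% of 1948 with TM in EC2. The 4 libraries gave similar rates there. In the 3′ UTR of Ifi203, at position 173920561, the rate was 73.1% of 26 reads without and 59.5% of 893 with TM in EC1, and 65.8% of 38 without and 62.2% of 1733 with TM in EC2. At position 173901696 in Mnda the rate was 27.3% of 11 reads in EC1 CON and 1.55% of 323 in EC1 TM, while EC2 CON did not list it and EC2 TM had 1.02% of 683. The CON value there rests on 3 altered reads. That site passed through EC1 CON alone, so the way it was picked favours a lower rate in TM.

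Paralogs differ by single bases that can look like A-to-G changes. For 50 of the 51 passing exonic sites of members a window of 31 bases around the site could be placed on a transcript, and for 11 of these (22%) the window with G at the site is the unaltered sequence of another gene. The share over all other genes was 9.33%. Of the 11 sites, 4 were in Ifi204, 3 in Ifi203, 2 in Mndal, and 1 each in Mnda and Aim2. The stretches below show 29 bases around such sites, 5′ to 3′ along the gene, with the site in capitals, first as the gene has it and then as the paralog has it.
Mndal at 173865426: cacagctcatcttcAgcttcatctaacat
Mnda: cacagctcatcttcGgcttcatctaacat
Mndal at 173862555: tgaagtgcccaacaAtattatcagaaatg
Ifi204: tgaagtgcccaacaGtattatcagaaatg
Ifi203 at 173926872: gctattgcaactccAaaaatttcttatct
Ifi203-ps: gctattgcaactccGaaaatttcttatct
At the Mndal site that matches Mnda, the rate was 45.5% of 22 reads without and 18.2% of 616 with TM in EC1, and 50% of 26 without and 22% of 1126 with TM in EC2. At the Mndal site that matches Ifi204, it was 30% of 10 reads, 11.6% of 354, 28.6% of 14 and 10.9% of 698 in the same order. Both sites were lower in TM in both mice. Mndal sites with no match were lower in TM too. At 173862537 the rate was 30% of 10 reads, 13.9% of 374, 37.5% of 16 and 14.1% of 754. At 173865405 it was 38.9% of 18 reads, 11.8% of 551, 41.2% of 17 and 17.4% of 1022 in the same order. The cause was not tested. At the Ifi203 site that matches the pseudogene Ifi203-ps, the rate was 26.8% of 41 reads, 37.5% of 931, 54.5% of 44 and 39.7% of 2110, higher in TM in EC1 and lower in EC2.
The Aim2 site in the 3′ UTR that stood apart in depth along the cluster also belongs here, since its altered window occurs in Cpa6, Dhrs7 and Gm43842. It lies in a LINE repeat, and its rate was 61.5% of 13 reads without and 60% of 10 with TM in EC1, and 60% of 20 without and 80.6% of 36 with TM in EC2.
At sites with a match and 5 reads in both libraries, the median rate was 38.1% in CON and 25.1% in TM at 9 sites in EC1, and 39.3% and 24.8% at 8 sites in EC2. At sites with no exact match it was 35% and 28.9% at 26 sites in EC1, and 32.4% and 30.1% at 28 sites in EC2. Some sites with no match still have the same unaltered 29 bases in another member, as Ifi204 at 173760237 and Mnda at 173906239. Their reads cannot be told apart by that window, so such sites are not free of paralog reads. Site by site, CON was higher at 7 and TM at 2 of the matched sites in EC1, and each at 4 in EC2. Of the sites with no match, CON was higher at 22 and TM at 4 in EC1, and CON at 18 and TM at 10 in EC2. A library lists a site only where it called an altered base, so a shallow CON library tends to list it at a high rate. Member sites in gene bodies had a median of 10 and 8 reads in CON against 144 and 184.5 in TM, so these tallies lean toward CON. The part of paralog reads in these rates was not tested further, and mismatches to genes that are absent from the transcript set were not tested.

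**Figure D4:**
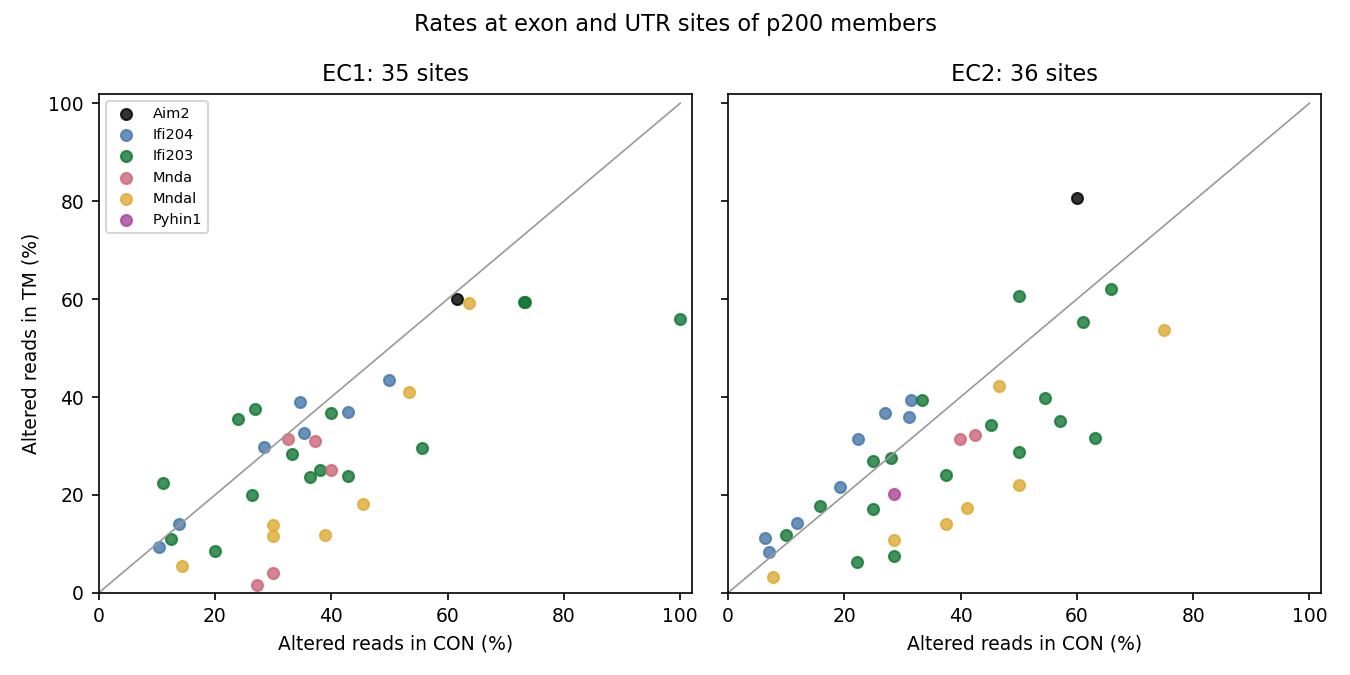
Percent of altered reads in TM (vertical axis) against CON (horizontal axis) at exon and UTR sites of members with at least 5 reads in both libraries, 35 sites in EC1 and 36 in EC2, coloured by gene. The line marks equal rates, and several sites with rates above 20% in CON stay above 20% in TM.

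Lower rates in TM were seen in SINEs in Ifi204 introns, with reads summed over the sites of 1 element that both libraries list. The sites of an element lie within 20 bases or fewer, so 1 read can count at several of them and only the rate and the depth per site are given. In a B1_Mm element with sites between positions 173760880 and 173760899 the rate was 16.4% without and 6.61% with TM in EC1, at 5 sites of 11 to 20 reads in CON and 144 to 210 in TM. In EC2 it was 13.7% without and 7.26% with TM, at 3 sites of 16 to 19 and 196 to 281 reads. In a B1_Mus1 element with sites between 173761345 and 173761361 it was 10.9%, 5.73%, 9.8% and 4.45% in the same order, with 24 to 36 reads per site in CON. Both elements were lower in TM in both mice, but part of this comes from how sites were picked. The sites at 173760880 (5 of 20 reads), 173760883 (3 of 19) and 173761361 (3 of 33) passed through EC1 CON alone. A site also has to show an altered base in CON to be listed, which at this depth raises the CON rate. How much of the difference remains without this selection was not tested. Another B1_Mus1 site of the gene, at 173749009, had 50% of 16 reads without and 58.8% of 85 with TM in EC1, and 37.5% of 8 without and 49% of 104 with TM in EC2, higher in TM in both.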

How the data were processed

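Per the labels and the study's methods, 100 ng of RNA per library was prepared with a strand-marking kit and sequenced in pairs. The submitters' processing notes name Trimmomatic 0.38, STAR 2.6.1a and HTSeq 0.11.2 on mm10. The authors deposited raw counts per gene, which were used as deposited without the summary rows (92.8% to 93.9% of the totals on no gene, 5.29% to 6.32% not unique), and a site table with counts of reference and altered reads, in which the fraction of altered reads is the authors' editing rate, 0 where a site is not listed. Site-table columns were given to libraries through a supplementary table with equal values.

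Counts were tested with edgeR 4.0.16 (filterByExpr, TMM, quasi-likelihood, condition only, n = 2 per group, R 4.3.3) and DESeq2 1.42.0 as an alternative. Site reads were tested with Fisher's exact test (SciPy). Both were tested on simulated data, in which Fisher's test found most changed sites only at depths greater than the members have in CON. The mouse pairs the samples, since CON and TM cells came from the same animal, and same-numbered libraries deviated together (r = 0.163 over 7899 genes). Ratios of counts carry exact 95% binomial intervals. A count of 0 allows 1.71 to 2.74 TMM-scaled CPM. Intervals and floors cover counting error only. GENCODE vM21 gave the gene positions, since the annotation the authors used is not given in the sources used here. Named were the 6 members, other p200 genes, listed DNA sensing and inflammasome genes that were called, with Pycard, Casp1, Gsdmd, Il1b, Il18, cGAS and STING whatever they did, Adar, and the 5 genes nearest to the members in profile. The members and lists were chosen with earlier results of these data known. Alternatives are given in the closing section.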

Additional observations from a re-analysis of the deposited data

Results flagged for a closer look

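Reads at 166 variant sites up to 50 kb beyond the 3′ end of Aim2, which no comparison of the gene bodies used, stood out in TM. In EC1, 14.5% of these sites were listed in CON and 48.8% in TM, with median depths of 1 and 9 reads per listed site. In EC2, 5.42% were listed in CON and 60.8% in TM, with medians of 1 and 11. Summed over these sites, TM had 5423 reads against 35 in CON for EC1, and 13644 against 13 for EC2. These sums move with the number of sites each library lists, take a site that is not listed as 0, and can count 1 read at several sites. The sites overlap the locus of Ifi206 on the opposite strand. This signal was picked out because it lies outside the main measurement and above the level of the untreated libraries. With n = 2 per group, no group was large enough for a test of single outlying samples.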

How the results depend on the processing

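Of 116 recomputed values, 90 stayed on the same side of their threshold or within their limit, 4 lost a call and 22 moved. Among them 0 called values changed direction, while the untested depth ratio of Aim2 changed sign at intron sites. Fold changes of members that were given no adjusted p are not among the 116 and were not called either. These were Mnda, Mndal and Pyhin1 in DESeq2 with mouse as a block, and Mndal without EC2 TM. DESeq2 called 362 genes against 612, and its log2 fold change of Mnda was 5.24. With mouse as a replicate block, edgeR called 1184 genes, all 6 members among them, and DESeq2 401 genes and 3 members, giving no adjusted p for Mnda, Mndal and Pyhin1 (unadjusted p of 0.00306, 0.124 and 0.0011). The block changed no other call of a member. Leaving out each library in turn gave 436 to 574 genes and 3 to 6 members (3 without EC2 TM), with log2 fold changes of 2.57 to 8.15 for Ifi203, 4.09 to 7.53 for Mnda and 7.07 to 7.25 for Pyhin1, whose value, like that of Mndal, is set by the prior count against 0 counts in CON, so that its narrow range is no sign of stability. The highest came without EC1 CON for Ifi203 and without EC2 CON for Mnda, where the CON library left had 0 counts. Adjusted p over the alternatives ranged from 4.65e-06 to 0.0696 for Ifi203, 2.66e-10 to 0.00286 for Ifi204, 2.01e-05 to 0.148 for Mnda, 6.13e-05 to 0.0342 for Mndal, 1.17e-05 to 0.0576 for Pyhin1 and 6.13e-11 to 0.000652 for Aim2 (edgeR or DESeq2, Benjamini-Hochberg).

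The mean log2 depth ratio of the 2 mice was 5.04 for Ifi203, and 5.07 when scaled by the median of all genes, 5.21 over all listed sites and 4.74 at intron sites. For Ifi204 it was 3.64, and 3.67, 3.73 and 3.41 in the same order. Mnda had 4.06, and 3.83 over all listed sites, and Aim2 -0.19, and 1.40 at intron sites. Intron sites gave no value for Mndal and Pyhin1. With a depth of at least 20, sites higher in CON fell to 17 in EC1 and 13 in EC2. With at least 5 altered reads, sites higher in TM numbered 42 in EC1, and among sites listed in both libraries 12 in EC1 and 18 in EC2. Fisher's exact test called 0 in every case. The cause was not tested. Low depth in CON limits the folds and rates of Ifi203, Mndal, Pyhin1 and Aim2.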
